A study of Mus musculus with 6 samples.

Results

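Transcripts that are best known from neurons and synapses were examined in sorted astrocytes of the mouse somatosensory cortex. The set held 42 gene symbols, matched by name, and 41 of them had a row of the same symbol among the 43383 rows of the deposited table. The remaining symbol, Map2, was listed under its older name Mtap2 and is given separately. The libraries came from GFP-positive cells of 4-week-old male mice of the Aldh1l1-eGFP line, in which GFP marks astrocytes. Cells from layers II–IV are called upper-layer astrocytes (ULAs) and cells from layers V and VI deep-layer astrocytes (DLAs), and they were taken from the same 3 brains, with 1 library for each layer of each brain and no drug or mutation in either group. Layers were separated by dissection under a microscope, and layer I, the meninges, the corpus callosum and parts of layers IV and V were discarded. The study used Tubb3, Rbfox3 and Actl6b as neuronal genes when it examined the purity of the sort, and the question here was how much of each such RNA the sorted cells held and whether it differed between ULAs and DLAs. The values are RPKM, that is, reads on a transcript divided by its length and by the number of mapped reads, and they can therefore be compared between genes. The steps of the RPKM values put the depth at 24.4 to 26.7 M reads in ULAs and 19.7 to 29.6 M reads in DLAs.

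Neurons release transmitter when SNARE proteins such as those of the Vamp, Snap25 and Stx1a genes fuse synaptic vesicles with the membrane, and synapsins and synaptophysin are carried on those vesicles. On the receiving side, scaffold proteins of the Dlg and Shank families hold receptors in the postsynaptic density. In many non-neuronal cells the repressor REST keeps a large number of such genes silent, and neurons exchange several subunits of the BAF chromatin remodelling complex for neuronal ones. Some members of these families also have known uses outside neurons, and astrocytes sit closely around synapses.

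The sorted cells held the RNA that the label calls for. The 10 astrocyte markers summed to between 10831 and 12413 RPKM per library, and Aldh1l1, which drives GFP in this line, lay between 203 and 271 RPKM. Against this the 41 neuronal members summed to 269 to 313 RPKM in ULAs and 297 to 325 RPKM in DLAs. In bulk samples such as these, fewer cells of a type and less RNA per cell cannot be told apart.

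The members were spread over more than 4 orders of magnitude. Of the 41, 6 had a mean RPKM over 10, 15 had a mean from 1 to 10, and 20 had a mean under 1, of which 5 were under 0.1. The median of the 21 members at 1 RPKM or more was 5.20, against 8.24 for the 13999 rows of the table at that level. Levels differed sharply within a family: Syn2 stood at 112 RPKM on average and Syn1 at 2.26, while Vamp2 stood at 73.5 and Vamp1 at 6.77. Among the RNA-binding Elavl genes, Elavl4 was at 10.4, Elavl3 at 2.05 and Elavl2 at 0.178.

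**Figure D1:**
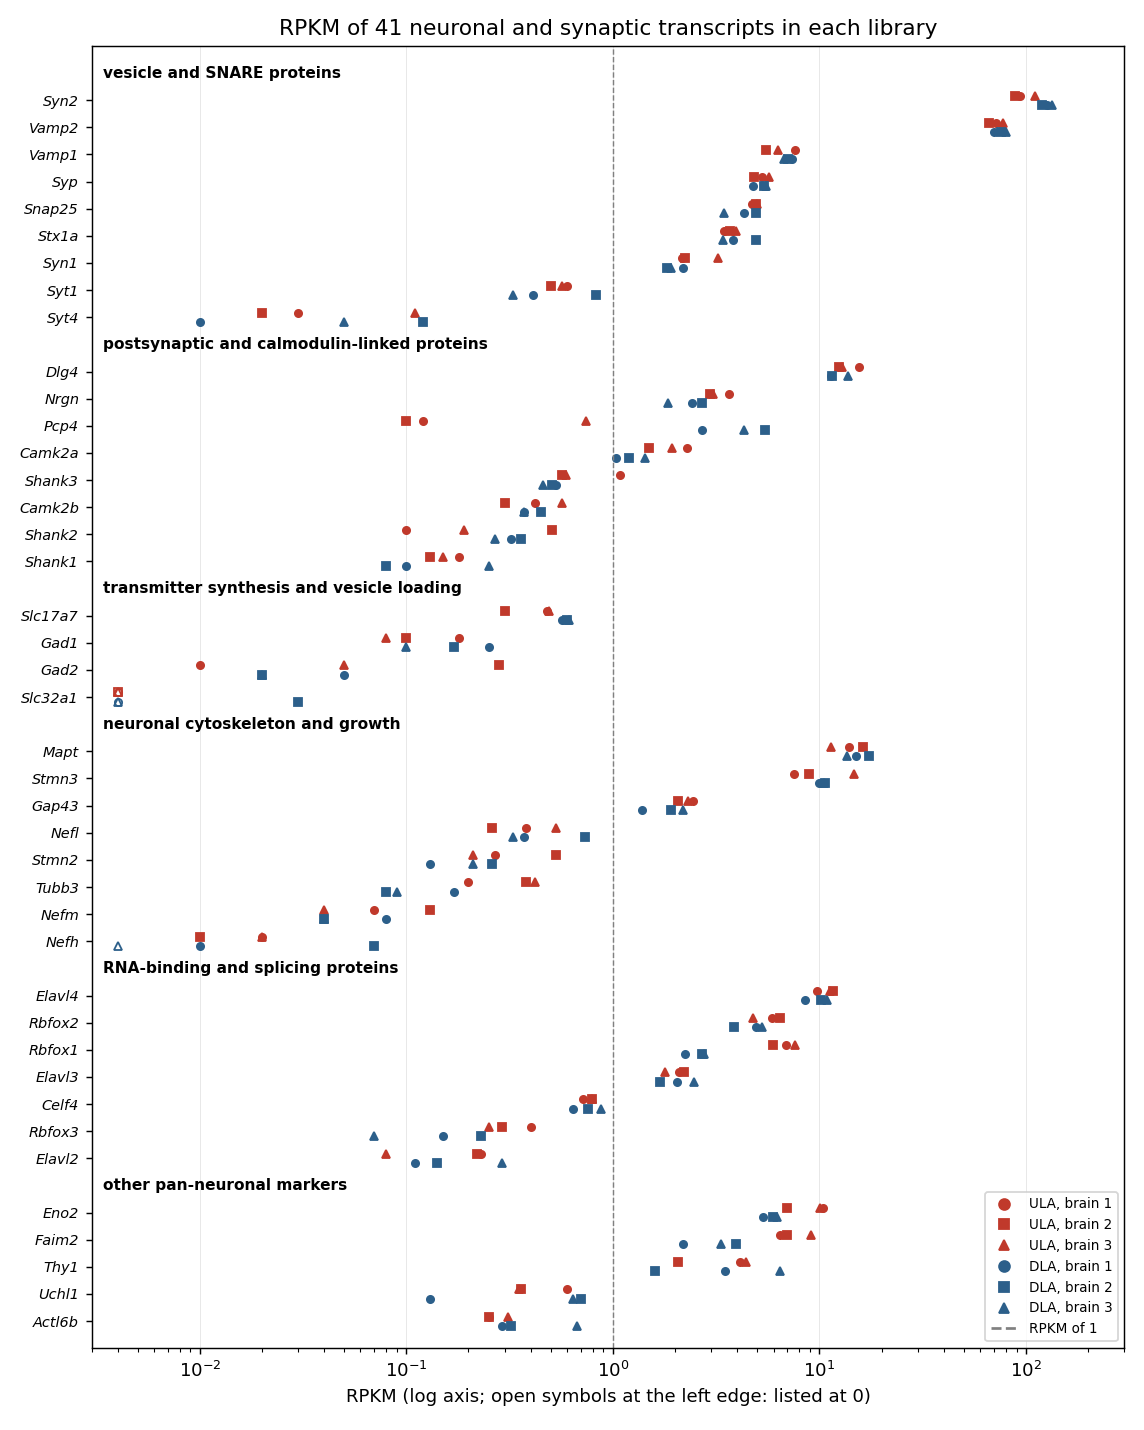
RPKM (log axis) of the 41 members in the 6 libraries, grouped by role, with ULAs in red and DLAs in blue and a symbol shape for each brain. Syn2 and Vamp2 sit near 100 RPKM in every library, 20 members have means to the left of the dashed line at 1 RPKM, and Pcp4 is the member whose red and blue points lie farthest apart.

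Syn2 and Vamp2 were the most abundant members in every library. Syn2 encodes synapsin II, a phosphoprotein of the vesicle surface, and its RPKM was 93.9, 89.0 and 110.0 in the ULAs of brains 1, 2 and 3 and 127, 120.0 and 134 in the DLAs. All 3 DLA values lay above all 3 ULA values. In the same libraries Syn2 amounted to 42.7% to 59.7% of the RPKM of Aldh1l1, and its mean was higher than that of 95.5% of the rows tested. Vamp2, the vesicle SNARE synaptobrevin 2, was at 71.9, 66.0 and 77.1 RPKM in ULAs and at 70.3, 75.9 and 79.7 RPKM in DLAs, so that the layers overlapped.

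The next 4 members in order of level were Mapt, Dlg4, Elavl4 and Stmn3. Mapt, which encodes the microtubule-binding protein tau, was at 14.0, 16.3 and 11.4 RPKM in ULAs and 15.0, 17.3 and 13.6 RPKM in DLAs. Dlg4 encodes PSD-95, the main scaffold of the postsynaptic density, and was at 15.6, 12.5 and 12.9 RPKM in ULAs and 11.4, 11.6 and 13.7 RPKM in DLAs. Elavl4, which encodes the RNA-binding protein HuD, was at 9.78, 11.6 and 11.2 RPKM in ULAs and 8.55, 10.1 and 10.9 RPKM in DLAs. For these 3 genes the ULA and DLA values overlapped. Within brains, Mapt was higher in DLAs and Elavl4 higher in ULAs in 3 of 3. Neither was called (adjusted p 0.577 and 0.620 in limma). Stmn3, a member of the stathmin family that regulates microtubules, was at 7.55, 8.89 and 14.7 RPKM in ULAs and 9.96, 10.6 and 10.5 RPKM in DLAs, and its highest and lowest values both came from ULAs. Between genes, the levels of Elavl4 and Stmn3 overlapped, and so did those of Mapt and Dlg4. The Mtap2 row, matched to Map2 by its RefSeq accession, was at 38.4, 32.1 and 29.5 RPKM in ULAs and 32.9, 23.5 and 32.6 RPKM in DLAs, again with overlap.

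The genes that the study used to look for neurons were among the least abundant members. Tubb3, which encodes βIII-tubulin, was at 0.20, 0.38 and 0.42 RPKM in ULAs and 0.17, 0.08 and 0.09 RPKM in DLAs. These values rest on 9, 17 and 20 reads in ULAs and 8, 3 and 5 reads in DLAs. Rbfox3, which encodes the neuronal nuclear antigen NeuN, was at 0.40, 0.29 and 0.25 RPKM in ULAs and 0.15, 0.23 and 0.07 RPKM in DLAs. For both genes ULAs had the higher value in 3 of 3 brains, without overlap between the layers. Actl6b, which encodes the neuronal BAF subunit BAF53b, was at 0.25, 0.25 and 0.31 RPKM in ULAs and 0.29, 0.32 and 0.67 RPKM in DLAs, and was higher in DLAs in 3 of 3 brains, with overlap between the layers. Within a library these levels were small beside that of Aldh1l1: 0.0295% to 0.187% for Tubb3, 0.0313% to 0.182% for Rbfox3 and 0.114% to 0.299% for Actl6b.

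Over the libraries of a layer, Tubb3 had 46 reads in ULAs and 16 in DLAs, a ratio of ULA to DLA at equal depth of 2.84 with an exact 95% interval of 1.58 to 5.37. Rbfox3 had 110 and 50 reads, with a ratio of 2.17 (1.54 to 3.10). Actl6b had 10, 10 and 13 reads in ULAs and 12, 10 and 31 reads in DLAs, so that the excess lay mostly in brain 3. Its totals were 33 and 53 reads, with a ratio of 0.615 (0.386 to 0.967). These intervals cover counting error only, since the reads carry no molecular identifiers and the spread between brains is not in them. The 3 genes had means under 1 RPKM and were not in the main test. When rows of all levels were fitted, the adjusted p of limma was 0.470 for Rbfox3, 0.476 for Tubb3 and 0.613 for Actl6b. Reads of 36 bases can match more than 1 tubulin gene, and Tubb2a was at 349 to 433 RPKM in these libraries, so the few reads of Tubb3 are uncertain.

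Genes for transmitter synthesis and vesicle loading were all under 1 RPKM. Slc17a7, the vesicular glutamate transporter VGLUT1, was at 0.30 to 0.49 RPKM in ULAs and 0.57 to 0.61 RPKM in DLAs. Gad1, which makes GABA, lay between 0.08 and 0.25 RPKM. Gad2, the other GABA-synthesizing enzyme, was at 0.01 to 0.05 RPKM in 5 libraries and at 0.28 RPKM, from 41 reads, in the ULAs of brain 2. Slc32a1, which loads GABA into vesicles, was listed at 0 in 5 libraries and at 0.03 RPKM in the DLAs of brain 2. The neurofilament genes were equally sparse, with Nefl at 0.26 to 0.73 RPKM, Nefm at 0.04 to 0.13 RPKM and Nefh at 0.07 RPKM or less.

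The other members under 1 RPKM on average were Celf4, Shank3, Syt1, Uchl1, Camk2b, Shank2, Stmn2, Elavl2, Shank1 and Syt4, with means from 0.763 for Celf4 down to 0.0567 for Syt4. Together the 20 low members summed to 6.22, 5.93 and 5.80 RPKM in ULAs and 4.69, 6.50 and 5.68 RPKM in DLAs, so that the sums overlapped. No library held the highest value of most of them: it lay in the DLAs of brain 2 for 6 members, in the DLAs of brain 3 for 5, in the ULAs of brain 2 for 4, in the ULAs of brains 1 and 3 for 2 each and in the DLAs of brain 1 for 1. Of the 15 low members with a mean of at least 0.1, 4 had layers that did not overlap, namely Shank3, Rbfox3 and Tubb3 with higher values in ULAs and Slc17a7 with higher values in DLAs. Over the 5925 rows of the table in that range, 10.8% did not overlap in either direction.

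The 21 members with a mean of at least 1 RPKM were compared between the layers in a limma fit over all 13999 rows at that level, with brain and layer as terms. A row was called at a Benjamini-Hochberg adjusted p under 0.05, and differences are given as ULA minus DLA on the log2(RPKM + 1) scale, which understates the change of low rows. Of these members, 2 were higher in ULAs (Rbfox1 and Faim2) and 1 was higher in DLAs (Pcp4, which reached the level for testing only through the DLAs). Over all rows, 0.714% were called higher in ULAs and 0.914% higher in DLAs. The median difference was 0.13 over the 21 members and -0.03 over all rows tested; that of the members was 0.067 without brain 1, 0.078 without brain 2, 0.064 with a correction for mRNA length and 0.0048 over rows of at least 5 RPKM. When rows of all levels were fitted together, none of the 3 calls passed, with adjusted p from 0.301 to 0.339 in limma.

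**Figure D2:**
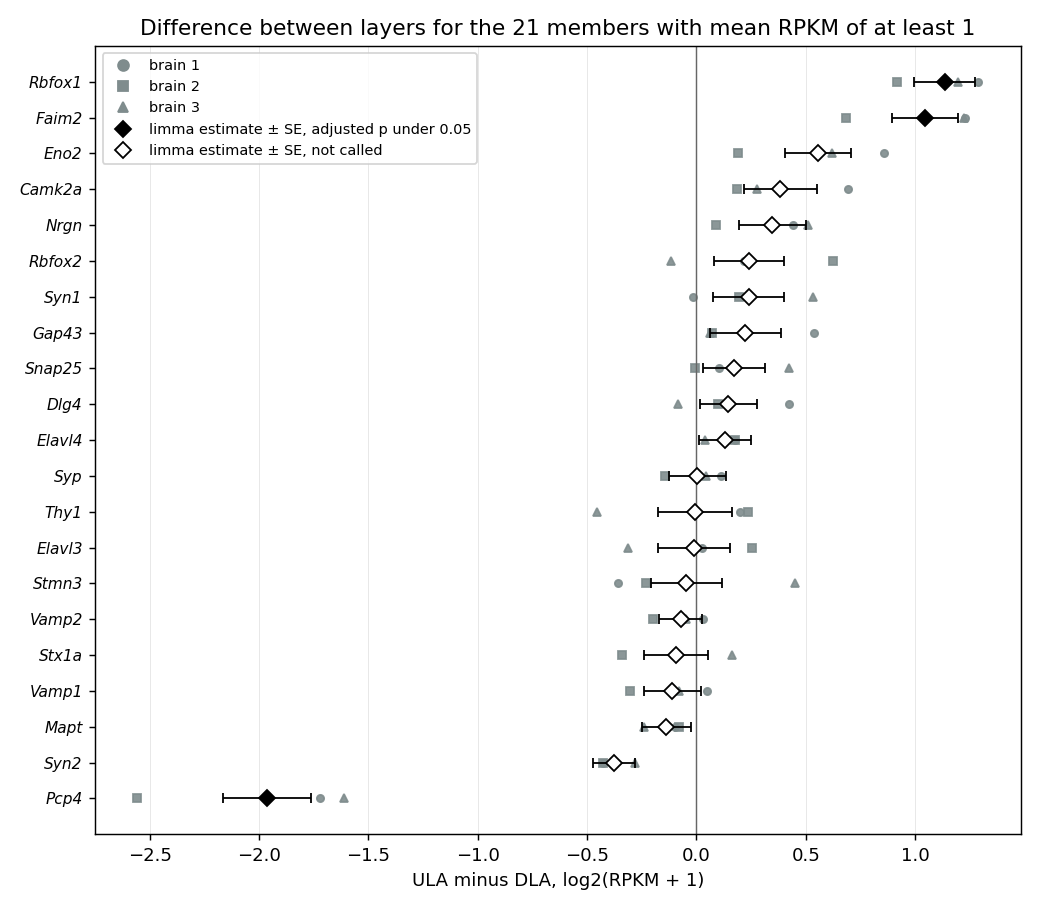
Difference between ULAs and DLAs on the log2(RPKM + 1) scale for the 21 members tested; grey symbols are the 3 brains, diamonds the limma estimate with its standard error, and filled diamonds the calls. Rbfox1 and Faim2 lie near 1 and Pcp4 near -2 with all 3 brains on the same side of 0, while most other members lie within 0.25 of 0.

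Rbfox1 encodes an RNA-binding protein that regulates alternative splicing in neurons and muscle. Its RPKM was 6.92, 5.97 and 7.64 in ULAs and 2.24, 2.69 and 2.77 in DLAs, and the lowest ULA value lay above the highest DLA value. The means were 6.84 ± 0.838 and 2.57 ± 0.286 RPKM (SD, n = 3), a ratio of 2.67. The difference was 1.13 (SE 0.14) with an adjusted p of 0.0044 in limma, and the brains gave 1.29, 0.92 and 1.20. The row is a transcript of 19 exons at chr16:5884886-7412573 on the plus strand of mm9, the build named in the submitters' processing notes, and each value rests on 290 to 1119 reads.

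The paralogs of Rbfox1 were not alike in the layer comparison. Rbfox2, a splicing regulator that is expressed in many tissues, was at 5.91, 6.48 and 4.76 RPKM in ULAs and 4.95, 3.85 and 5.25 RPKM in DLAs, and the layers overlapped. Its difference was 0.24 (SE 0.16) with an adjusted p of 0.487 in limma, and brain 3 lay on the other side of 0. Whether Rbfox1 and Rbfox2 differed from each other in their layer difference was not tested. In ULAs the levels of Rbfox1 and Rbfox2 overlapped, and in DLAs all 3 values of Rbfox1 lay below all 3 values of Rbfox2. Rbfox3, the member of the family that is confined to neurons in textbook accounts, was below both in every library, with values under 0.5 RPKM. Like Rbfox1 it was higher in ULAs in 3 of 3 brains without overlap. Its ratio of reads was 2.17 (1.54 to 3.10 for counting error), and it was not in the main test.

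Faim2 encodes a membrane protein of neurons that inhibits Fas-mediated cell death. Its RPKM was 6.46, 6.94 and 9.13 in ULAs and 2.18, 3.94 and 3.34 in DLAs, without overlap. The means were 7.51 ± 1.42 and 3.15 ± 0.895 RPKM (SD, n = 3), a ratio of 2.38. The difference was 1.05 (SE 0.15) with an adjusted p of 0.0086 in limma, and the brains gave 1.23, 0.68 and 1.22. Without the brain as a term in the model the adjusted p was 0.0986, and the call was lost. The row lies at chr15:99327436-99358596 on the minus strand of mm9, with 12 exons and 271 to 1139 reads per library.

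Pcp4 encodes a small protein that binds calmodulin and is known from Purkinje cells and from neurons of the deep cortical layers. Its RPKM was 0.12, 0.10 and 0.74 in ULAs and 2.69, 5.47 and 4.32 in DLAs. The DLA values lay far above the ULA values in all 3 brains. The row reached a mean of 1 RPKM only through the DLAs, so a difference was built into its passing the filter, and the values and reads are the description to go by. The means were 0.32 ± 0.364 and 4.16 ± 1.40 RPKM (SD, n = 3), and the difference was -1.96 (SE 0.20) with an adjusted p of 0.0015 in limma. The ULA values rest on 2, 2 and 13 reads and the DLA values on 46, 69 and 82 reads, which at equal depth is a ratio of DLA to ULA of 11.7 with an exact 95% interval of 7.15 to 20.6 for counting error. The row is a short transcript of 641 bases in 3 exons at chr16:96689213-96747400 on the plus strand of mm9.

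Markers of deep-layer neurons were mixed in level. Of 12 such markers, Bcl11b was listed at 0 in all 6 libraries, Syt6 was at 0.02 RPKM or less, Tbr1 at 0.10 RPKM or less and Ntsr1 at 0.11 RPKM or less. The 4 markers over 1 RPKM on average (Sox5, Tle4, Fezf2 and Etv1) were present in both layers, with Sox5 at 20.0 to 25.7 RPKM in ULAs and 19.8 to 24.9 RPKM in DLAs and Tle4 at 17.6 to 20.6 and 13.1 to 22.1 RPKM. Fezf2 was at 3.99, 3.32 and 7.36 RPKM in ULAs and 4.14, 5.75 and 8.97 RPKM in DLAs, with the higher value in DLAs in 3 of 3 brains, as for Pcp4, and a difference of -0.31 (SE 0.15, adjusted p 0.333 in limma). Tbr1 was at 0, 0.04 and 0.04 RPKM in ULAs and 0.05, 0.06 and 0.10 RPKM in DLAs, also on the side of Pcp4 and without overlap, whereas the values of Etv1 lay higher in ULAs (4.94 to 6.32 against 4.22 to 4.90 RPKM). None of the 4 markers tested was called, and the list summed to 52.1, 54.5 and 54.1 RPKM in ULAs and 51.4, 44.8 and 61.9 RPKM in DLAs. The 9 oligodendrocyte markers summed to 75.3, 77.2 and 165 RPKM in ULAs and 144, 168 and 249 RPKM in DLAs. The sum and Pcp4 were both higher in DLAs in 3 of 3 brains, and among ULAs both were highest in brain 3. Among DLAs, Pcp4 was highest in brain 2 and the sum in brain 3. The ULAs of brain 3 had a larger sum than the DLAs of brain 1 (165 against 144 RPKM) but less Pcp4 (0.74 against 2.69 RPKM). The part of oligodendrocyte or deep-layer neuron RNA in the Pcp4 difference was not tested. With 1 brain left out the difference of Pcp4 was -2.08, -1.67 and -2.14 without brains 1, 2 and 3. These refits describe the values only, since the row passed the filter through the DLAs, and they do not test the difference.

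**Figure D3:**
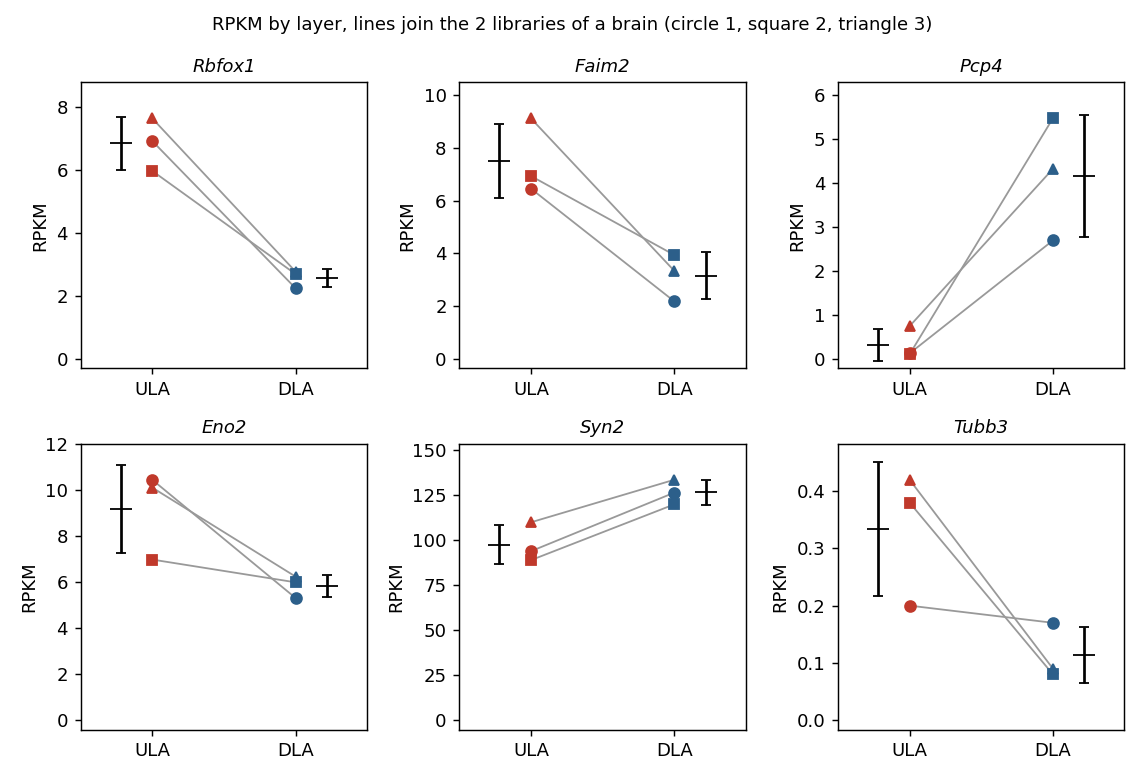
RPKM (linear axis) of the 3 called members, of Eno2 and Syn2 and of Tubb3 in ULAs (red) and DLAs (blue); lines join the libraries of a brain and the black bars are the mean ± SD of 3 libraries. In each panel the 3 brains point the same way, and no ULA value falls among the DLA values.

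Eno2 and Syn2 were the members closest to a call. Eno2 encodes neuron-specific enolase, an enzyme of glycolysis, and was at 10.45, 6.98 and 10.1 RPKM in ULAs and 5.31, 5.99 and 6.24 RPKM in DLAs. The layers did not overlap, and the difference was 0.56 (SE 0.15) with an adjusted p of 0.107 in limma. The adjusted p was 0.689 without brain 1, 0.0316 without brain 2, in which the layers differed by 0.19, and 0.0519 without brain 3. The difference of Syn2 was -0.38 (SE 0.09) with an adjusted p of 0.0925 and was -0.43, -0.43 and -0.28 in the 3 brains. Its adjusted p was 0.659 without brain 1, 0.122 without brain 2 and 0.0214 without brain 3, a setting in which the calls over all rows rose from 100 and 128 to 426 and 687. In both genes the values were on 1 side in every brain, and the test across all rows did not pass.

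Among the 21 tested members, 5 had ULA values that all lay above the DLA values (Rbfox1, Faim2, Eno2, Nrgn and Camk2a) and 2 had the reverse (Syn2 and Pcp4). Over all rows tested, 6.59% had ULAs higher without overlap and 9.27% had DLAs higher. Of the 18 members that were not called, 14 differed by less than 0.25 on the log2 scale, 10 lay above 0 and 8 below, and the adjusted p in limma ran from 0.0925 to 0.991. Their standard errors were 0.09 to 0.17, and a p that misses the threshold does not show that the layers had equal levels.

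By role, none of the 7 vesicle and SNARE genes tested was called, and their median difference was -0.07, with Syn2, given above, the one without overlap between the layers. Syp, which encodes the vesicle protein synaptophysin, was at 4.81 to 5.70 RPKM in ULAs and 4.79 to 5.49 RPKM in DLAs. Snap25 and Stx1a, the SNARE partners of Vamp2 at the cell membrane, lay between 3.47 and 4.99 RPKM and between 3.41 and 4.93 RPKM, and Syt1, the calcium sensor of release, was under 1 RPKM in every library. An opposite-strand row covers 35.3% of the exon bases of Syp at a mean of 4.28 RPKM, and since the strand setting of the counting is not given in the sources used here, reads of the pair cannot be told apart.

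Of the 4 postsynaptic and calmodulin-linked genes tested, Pcp4 was called. Nrgn, which encodes neurogranin, a calmodulin-binding protein of dendrites, was at 2.95 to 3.63 RPKM in ULAs and 1.85 to 2.71 RPKM in DLAs, with a difference of 0.35 (SE 0.15) and an adjusted p of 0.296 in limma. Camk2a, the α subunit of the kinase CaMKII, was at 1.50 to 2.28 and 1.03 to 1.43 RPKM, with a difference of 0.38 (SE 0.17) and an adjusted p of 0.293. Both were higher in ULAs in 3 of 3 brains, the opposite side from Pcp4. Of the 3 cytoskeletal genes tested (Mapt, Stmn3 and Gap43) and the 4 RNA-binding genes tested (Elavl4, Elavl3, Rbfox2 and Rbfox1), Rbfox1 was the only call. Of the 3 tested among the other pan-neuronal markers, Faim2 was called, Eno2 was not, and Thy1 ranged from 1.60 to 6.43 RPKM with both extremes in DLAs.

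Genes of the same pathways outside the 42 symbols were counted in the same fit. Of 33 further presynaptic genes, 17 were tested and none was called, with a median difference of -0.03. The most abundant were Syn3, the third synapsin, at 46.5 to 57.0 RPKM in ULAs and 40.9 to 51.9 RPKM in DLAs, and Rab3a, a small GTPase of synaptic vesicles, at 29.4 to 34.4 and 32.1 to 38.5 RPKM. Of 16 further postsynaptic genes tested, only Ppp1r1b was called. It encodes DARPP-32, an inhibitor of protein phosphatase, and was at 23.0, 23.4 and 24.4 RPKM in ULAs and 46.1, 48.4 and 29.6 RPKM in DLAs, a difference of -0.75 (SE 0.15) with an adjusted p of 0.0369 in limma. The layers did not overlap, and without brain 2 its adjusted p was 0.0916. None of the 14 further cytoskeletal genes tested was called (median -0.12), and neither was any of the 5 further RNA-binding genes (median near 0), where Celf2 at 33.8 to 49.2 RPKM and Mbnl2 at 33.4 to 42.5 RPKM were the most abundant.

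Markers of neuronal subtypes other than deep-layer neurons were likewise uncalled. The 10 interneuron markers, none of which averaged 1 RPKM, summed to 0.65, 0.89 and 1.10 RPKM in ULAs and 0.87, 2.73 and 0.88 RPKM in DLAs, where 1.99 of the 2.73 RPKM in brain 2 came from the neuropeptide gene Cck. Lhx6 and Dlx2 were listed at 0 in all libraries, and Sst, the gene of somatostatin, in 5. Of the 11 upper-layer neuron markers, Rorb (76.0 to 121 RPKM) and Lhx2 had the highest levels in both layers and were not called. Lhx2 was at 36.1, 15.4 and 39.7 RPKM in ULAs and 49.6, 20.5 and 51.3 RPKM in DLAs, with the higher value in DLAs in 3 of 3 brains and a difference of -0.40 (SE 0.10, adjusted p 0.0932 in limma). Mdga1 lay higher in DLAs without overlap (0.86 to 0.90 against 1.13 to 1.27 RPKM). Calb1, the gene of calbindin, was at 0.46, 0.28 and 0.54 RPKM in ULAs and 0.07, 0 and 0 RPKM in DLAs.

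The repressor REST, its partners and the BAF subunits were measured in both layers. Rest was at 5.29, 3.92 and 5.45 RPKM in ULAs and 5.37, 5.03 and 4.20 RPKM in DLAs, with a difference of 0.00 (SE 0.15) and an adjusted p of 0.999 in limma. None of the 12 genes of this list was called, and their median difference was -0.02. Rcor1, a corepressor that works with REST, was at 4.88, 4.94 and 4.53 RPKM in ULAs and 3.21, 3.86 and 3.14 RPKM in DLAs (difference 0.40, SE 0.13, adjusted p 0.191 in limma), and the BAF subunit gene Dpf1 was at 5.52, 3.99 and 3.71 against 3.34, 3.52 and 2.55 RPKM, both without overlap. Smarcd3 (56.8 to 70.1 RPKM) and Dpf2 (26.7 to 33.4 RPKM) were the most abundant of the list, while Actl6b, given above, stayed under 1 RPKM.

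Promoter sequences were read for the members from the RefSeq windows of GRCm38.p6, which run from 250 bases before a transcription start to 50 bases after it. Windows were given for 26 of the 42 symbols, 39 windows in all. They were searched on both strands for the paired core of the RE1 element that REST binds, AGCACC followed after 2 bases by GGACA. This was found in 0.067% of all 32851 windows and in 1 member window, that of Gad2, one of the least abundant members. The first part alone, AGCACC, occurred in 16.2% of all windows and in windows of 8 members (Actl6b, Dlg4, Elavl4, Gad2, Nrgn, Slc32a1, Syn1 and Tubb3), and GGACA alone in 47.9% of all windows and in windows of 14 members. The stretch of Gad2 is shown with the RE1 letters in capitals; it lies at chr2:22622134-22622206 of GRCm38.p6, plus strand, and the capitals span bases 163 to 151 before the start:
Gad2: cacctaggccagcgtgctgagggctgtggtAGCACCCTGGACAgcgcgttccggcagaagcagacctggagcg
A match is a description of these letters and says nothing on binding, and RE1 elements can lie outside such windows.

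Of the 3 called members, Rbfox1 and Pcp4 had windows, and the 100 bases before each start are shown because these genes lie on opposite sides of the layer comparison; capitals mark CG dinucleotides. The starts of Rbfox1 are 2, and the RPKM of the gene does not separate them. The stretches lie on the plus strand of GRCm38.p6 at chr16:5884693-5884792 and chr16:7069735-7069834 for Rbfox1 and at chr16:96467506-96467605 for Pcp4:
Rbfox1, first start: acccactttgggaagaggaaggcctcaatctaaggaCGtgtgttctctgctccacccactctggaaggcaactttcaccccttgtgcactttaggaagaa
Rbfox1, second start: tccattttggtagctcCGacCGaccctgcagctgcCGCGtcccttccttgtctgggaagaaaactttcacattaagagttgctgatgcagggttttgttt
Pcp4: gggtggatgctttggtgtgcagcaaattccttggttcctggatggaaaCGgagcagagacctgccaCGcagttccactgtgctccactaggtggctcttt
Over their full windows of 300 bases, these held 3, 7 and 6 CG dinucleotides, against a median of 7 over all windows and 16 over the member windows. The windows of members under 1 RPKM had a median of 18.5 and those of members at 1 RPKM or more a median of 13, given as a description of these windows.

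RNA of other cell types was low beside that of astrocytes. The oligodendrocyte list had the most calls, although its sums overlapped between the layers, those of the ULAs of brain 3 lying above those of the DLAs of brain 1. Of the 8 oligodendrocyte markers tested, 6 were higher in DLAs, among them Mog, a glycoprotein of the myelin surface, at 1.43, 1.48 and 8.37 RPKM in ULAs and 6.76, 9.14 and 12.9 RPKM in DLAs (difference -1.43, SE 0.23, adjusted p 0.0153 in limma), and also Mag, Mobp, Opalin and Ugt8a. Gfap, the intermediate filament of astrocytes, was higher in DLAs (12.2, 12.5 and 10.4 against 23.8, 28.8 and 17.8 RPKM). Rgs5, a pericyte marker, was higher in ULAs (1.98, 2.06 and 2.70 against 1.01, 0.75 and 0.93 RPKM, adjusted p 0.0455 in limma). Rgs5 (mean 0.897 RPKM in DLAs) and Opalin (mean 0.967 RPKM in ULAs) reached the level for testing only through their higher layer. A difference was thus built into their passing the filter, as for Pcp4, and their calls do not show one by themselves. Markers of oligodendrocyte precursors summed to 0.44 to 0.99 RPKM, those of endothelial cells to 0.44 to 3.12 RPKM and those of microglia to 9.00 to 14.7 RPKM; of these lists only 1 gene, in that of microglia, reached the level for testing, and it was not called. With a brain left out some of these calls were lost: without brain 2 the adjusted p in limma was 0.0942 for Rgs5, 0.0793 for Mag and 0.052 for Mobp, and without brain 1 it was 0.0863 for Ugt8a. Further calls were lost under other settings: Mag with quantile normalization (0.0515), the length correction (0.0678) and no intensity trend (0.0573), Mog with the length correction (0.0519), and Rgs5 with a pseudocount of 0.1 (0.0571), quantile normalization (0.056) and the length correction (0.0521). The oligodendrocyte list had its higher values in DLAs, where Rbfox1 and Faim2 had their lower ones. The microglia markers had theirs in ULAs, as did Rbfox1, Faim2 and Rgs5. They summed to 13.8, 13.6 and 14.7 RPKM in ULAs and 11.7, 9.00 and 12.1 RPKM in DLAs. The part of any of these cells in the differences of Rbfox1 and Faim2 was not tested.

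**Figure D4:**
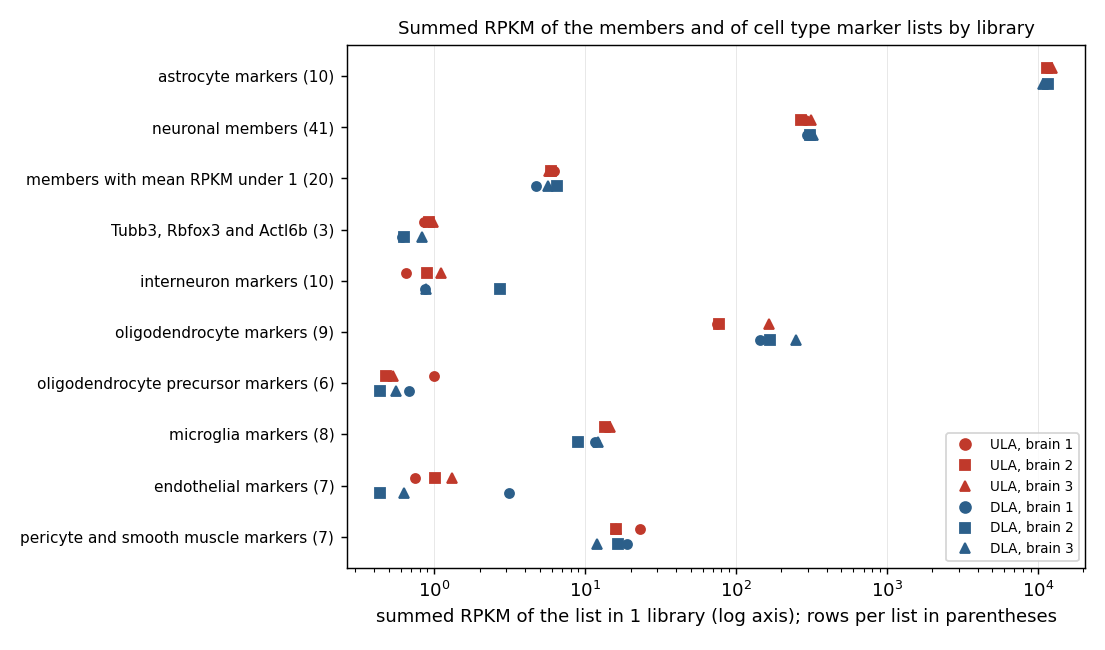
Summed RPKM (log axis) of the neuronal members and of marker lists of other cell types, 1 point per library, with ULAs in red and DLAs in blue. Astrocyte markers lie between 10831 and 12413 RPKM, the 41 members near 300 RPKM, and the 20 low members at 4.69 to 6.50 RPKM with overlap between the layers.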

How the data were processed

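RNA was extracted from GFP-positive cells of 3 brains, amplified with SMART-Seq v4, made into libraries with Nextera XT and sequenced as single reads of 36 bases on an Illumina HiSeq instrument. The authors deposited RPKM values for 6 libraries, cut to 2 decimals. The submitters' processing notes name mm9, bcl2fastq 1.8.4 and CASAVA 1.8.2; the aligner, the counting program and the treatment of strand and of reads with several matches are not given in the sources used here. All value columns belong to the 6 libraries.

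Depth was inferred from short rows (500 bases at most), in which 99.7% to 100% of RPKM values matched a whole number of reads after truncation to 2 decimals. Reads printed in the text were recovered in this way and give precision only. Every row has 1 symbol, and the RefSeq accession gave current names for older ones. Exon lengths, taken as end minus start, summed to the listed length for 42 of 42 rows, so that starts are 0-based in the table and are printed 1-based.

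Rows with a mean of at least 1 RPKM (13999) were fitted with limma 3.58.1 in R 4.3.3 (eBayes with an intensity trend) on log2(RPKM + 1), with brain and layer as terms. The study used a paired test over brains, and libraries with the same replicate number deviated together (r across rows of 0.42, 0.33 and 0.34, against -0.20 to -0.16 otherwise), so the number was taken as the brain. The fit was tested on simulated data with 3 pairs, in which 200 of 13999 rows were changed. It recovered 0 of the 200 at a log2 change of 0.5, 81 at 1.0 and 176 at 2.0. The false calls were 0, 1 and 8. A row that was not called may therefore still differ by about 0.5. With 3 pairs an exact permutation test cannot go below p = 0.25, so single genes were tested in limma only. Counts, sums and exact binomial intervals at 95% were computed in Python 3.11.15 with pandas 2.3.3 and scipy 1.17.1, with plots made in matplotlib 3.10.9.

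The members and all gene lists were chosen with earlier results of these data known, and p-values were adjusted over all rows tested. Values in every library are given for called members, for Tubb3, Rbfox3 and Actl6b, for the 6 most abundant members, for paralogs of a called member and for members on 1 side in 3 of 3 brains with a difference of at least 0.5. Of other lists, called genes or the 2 most abundant are named, with defining markers near 0. Calb1, Mdga1, Rcor1, Dpf1, Fezf2, Etv1, Nrgn, Camk2a and Thy1 and other members given by range fall outside this rule and were picked with their values in view. The fit was repeated with no term for the brain, with 0.1 in place of 1 as the pseudocount, on rows of all levels, on rows of at least 5 RPKM, after median centring or quantile normalization, with 1 brain left out at a time, after a loess correction for mRNA length, and without the intensity trend. Some genes of the lists are not reported here by name. The coordinates of mm9 and of GRCm38.p6 were kept apart.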

Additional observations from a re-analysis of the deposited data

How the results depend on the processing

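Rbfox1 was called in 9 of the 10 alternatives that tested it and Faim2 in 9 of 11. Both kept their direction in all of them. Pcp4 kept its direction too, but a difference was built into its passing the filter, so its refits add no support. With no replicate block the adjusted p of Faim2 was 0.0986. Removing the filter on low RPKM added 13964 rows near 0 to the fit. The limma calls over all rows, members and other lists were then 0 in each direction. The adjusted p was 0.301 for Rbfox1, 0.305 for Pcp4 and 0.339 for Faim2. At an unadjusted p under 0.05 in limma, 1124 of the 27963 rows fitted were higher in ULAs and 1675 higher in DLAs. Of the 41 members, 7 passed that level in either direction.

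Over all rows, 100 were called higher in ULAs and 128 higher in DLAs. With no replicate block these counts were 23 and 18, with 1 member higher in ULAs, and no gene of the other lists was called (0 in each direction, against 0 and 1 for the other neuronal lists and 1 and 7 for the other cell types). With the length correction they were 65 and 78, and without the intensity trend 65 and 79; Ppp1r1b was lost in both and under quantile normalization (0 calls left in the other neuronal lists), which gave 138 and 103 calls over all rows, and Rgs5 was lost under the length correction (0 calls in ULAs). At a mean of at least 5 RPKM 1 member was called in ULAs and 0 in DLAs, since Rbfox1 and Pcp4 were no longer tested, and 3 genes of other cell types were called in DLAs. The median difference of the members was 0.13, 0.0048 at a mean of at least 5 RPKM and 0.064 with the length correction.

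With 1 brain left out, 104 to 426 rows were called in ULAs and 126 to 687 in DLAs, the highest without brain 3. Members called were 2 to 3 in ULAs and 1 to 2 in DLAs, and their median difference was 0.067 to 0.14. The other neuronal lists gave 0 to 1 calls in ULAs and 0 to 4 in DLAs, and the other cell types 1 to 2 in ULAs and 5 to 8 in DLAs. The cause was not tested.

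Uncalled members near 0 changed sign in some settings. Thy1 gave 0.020 with a pseudocount of 0.1, 0.0024 with median centring, 0.064 with the length correction and -0.13 to 0.22 with 1 brain left out. Stmn3 gave 0.049 with the length correction and -0.29 to 0.11 with 1 brain left out, and Syp gave -0.0018 with quantile normalization and -0.048 to 0.078 with 1 brain left out. Vamp2 gave 0.0093 with quantile normalization, and with 1 brain left out Stx1a gave -0.22 to 0.029 and Elavl3 -0.15 to 0.14. For members under 1 RPKM the number of reads limits the precision.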
